A study of Homo sapiens with 6 samples.

Results

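The genes that carry glucose to pyruvate, exchange lactate with the medium and bring pyruvate into the mitochondrion were examined in Molm13 leukemia cells with and without guides against COX4I1, a nuclear-encoded subunit of Complex IV of the respiratory chain. The set holds 36 genes of the 19845 gene symbols counted, chosen by name for their place in the pathway, with earlier results of these data known, and 35 of them passed the expression filter that left 11861 genes for testing. The gene left out was PFKFB2, which had between 0 and 3 reads in a library. Most of the set moved little: 26 of the 35 tested genes had a log2 fold change of less than 0.2 in either direction. The lactate and pyruvate transporter SLC16A1 (MCT1) rose by 27.1%, and it was the only member called at an adjusted p under 0.05 in the main test, edgeR's quasi-likelihood test. The less abundant aldolase, enolase and PFKFB isoforms (ALDOC, ENO2 and PFKFB4) had lower means in the sgCOX4I1 libraries, and the hexokinases HK1 and HK3 and the pyruvate dehydrogenase subunits DLAT and DLD had higher ones, but none of these 7 passed the adjusted threshold in that test. DESeq2 called PFKFB4, ALDOC and ENO2 as well, where it called 4.17% of the genes to which it gave an adjusted p.

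The libraries came from Molm13, a human acute myeloid leukemia line with an MLL rearrangement, made to express the Cas9 nuclease, transduced with lentiviral guides and selected in puromycin. There were 3 libraries with control guides (sgCtrl #1 to #3) and 3 with guides against COX4I1 (sgCOX4I1 #1 to #3), where the number was read as the guide, so all 6 carried Cas9, a guide vector and the drug selection. The replicates of a group therefore differ in guide as well as in culture, and a p-value measures the spread between these libraries of 1 cell line. The comparison asks whether the mRNAs of the pathway changed when COX4I1 was targeted. It measures neither protein, nor flux, nor lactate.

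Glycolysis splits glucose into pyruvate in the cytosol and yields a small amount of ATP without oxygen. Lactate dehydrogenase then turns pyruvate into lactate and regenerates the NAD+ that glycolysis uses, and monocarboxylate transporters move the lactate across the plasma membrane. Alternatively the mitochondrial pyruvate carrier delivers pyruvate to the pyruvate dehydrogenase complex, which makes acetyl-CoA and is switched off by kinases and on by phosphatases. Cells whose respiratory chain is impaired are known to lean on the first of these routes, and many leukemia cells use both.

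Library totals ranged from 17241014 to 30861943 counts, with TMM factors from 0.987 to 1.01, so that 0 counts in a library limit a gene to between 0.0972 and 0.174 CPM by counting error alone. COX4I1 was at 513, 502 and 463 CPM in sgCtrl #1, #2 and #3, and at 132, 378 and 133 CPM in sgCOX4I1 #1, #2 and #3, so sgCOX4I1 #2 kept the most of it (log2 fold change -1.21, SE 0.29, adjusted p = 0.0512 by edgeR quasi-likelihood, Benjamini-Hochberg). COX4I1 was called by limma-voom (adjusted p = 0.0291) and not by DESeq2 (adjusted p = 0.234), and without sgCOX4I1 #2 its log2 fold change was -1.89 and it was called by edgeR. Of 11 myeloid markers all were detected, with a summed level of 3464 to 4307 CPM in sgCtrl and 3970 to 5138 CPM in sgCOX4I1 libraries. The largest single part of that sum was LYZ, with a mean of 1590 CPM in sgCtrl and 2717 CPM in sgCOX4I1 libraries (adjusted p = 0.0534, edgeR). MPO, by contrast, fell from 227 ± 8.28 to 109 ± 6.57 CPM (SD, n = 3, adjusted p = 1.6e-05, edgeR). CEBPE was at 1.63 to 3.29 and 0.756 to 1.29 CPM (adjusted p = 0.154, edgeR). The part of these differences in the results on the members was not tested. All 5 erythroid markers were at 0 in every library. The T and NK cell list summed to 54.9 to 56.4 and 61.0 to 65.5 CPM, nearly all of it NKG7, with CD3D and CD3G at 0 in every library. The B cell list, mostly PAX5, summed to 16.5 to 19.4 and 19.2 to 21.6 CPM, the epithelial list to 11.6 to 17.4 and 8.44 to 12.8 CPM with EPCAM at 0, and the megakaryocyte list to 1.19 to 2.62 and 1.34 to 1.76 CPM with PF4 and PPBP at 0. In bulk RNA, fewer cells of a type and less RNA per cell cannot be told apart. The share of counts from mitochondrially encoded genes ran from 2.93% to 4.99% and that from ribosomal protein genes from 11.8% to 14.3%, and in both groups #1 had the lowest mitochondrial and the highest ribosomal share and #3 the reverse.

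Together the 36 genes took between 1.11% and 1.20% of all counts, with 1.15%, 1.11% and 1.12% in sgCtrl #1, #2 and #3 and 1.14%, 1.20% and 1.13% in sgCOX4I1 #1, #2 and #3. The groups overlapped in this share. To compare genes with each other, CPM was divided by the kilobases of annotated exon of each gene. That length joins the exons of all annotated transcripts of a gene, for instance 8572 bases for PKM and 3829 for ALDOA. It can exceed the length of the mRNA expressed, which was not measured. The order between genes and the shares per length given below therefore depend on the annotation. On this scale GAPDH was highest in sgCtrl libraries at 1323 ± 74.6 (SD, n = 3), followed by ALDOA at 356 ± 5.52, LDHB at 329 ± 13.3, ENO1 at 296 ± 12.0 and TPI1 at 185 ± 7.05. The levels then fell through PGAM1 (142), LDHA (108), PKM (85.9) and PGK1 (68.3) to MPC1 (41.7) and PDHA1 (28.6), and reached their lowest tested values for ENO2 (1.17), PDK3 (0.252) and PFKM (0.162). The main isoforms of lower glycolysis and both lactate dehydrogenases had higher means than any hexokinase, PFKFB enzyme or regulator of pyruvate dehydrogenase, whereas ENO3 (11.3), BPGM (2.88) and ENO2 lay below HK2 (16.2) and PFKFB3 (14.6). In sgCOX4I1 libraries the order of the leading genes was the same except that LDHB (339 ± 11.1) had a higher mean than ALDOA (331 ± 19.9), 2 values whose spreads overlap. The counting could have moved reads between some of these genes and their copies, since 65 pseudogenes named after GAPDH, 13 after PGAM1, 6 after LDHA and 5 after PKM are annotated, and 42.8% of the exon bases of ALDOA and 33.4% of those of LDHB are shared with another gene on the same strand.

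**Figure D1:**
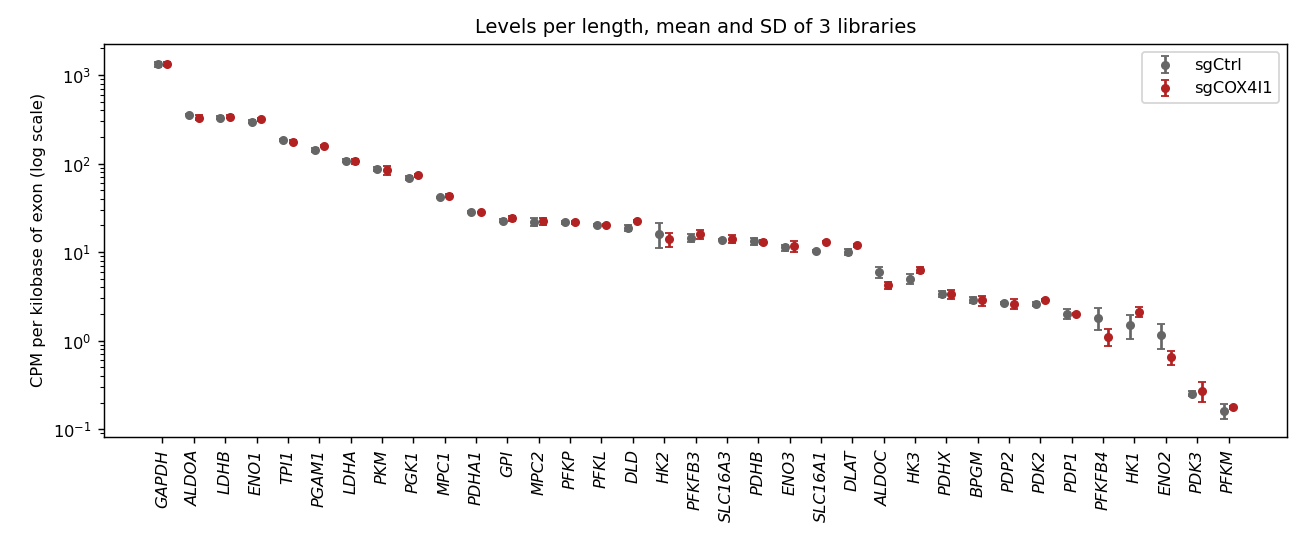
Level per length of the 35 tested genes (y axis, CPM per kilobase of annotated exon, log scale) in sgCtrl (grey) and sgCOX4I1 (red) libraries, with points for the mean and bars for the SD of 3 libraries, ordered by the sgCtrl mean. GAPDH stood highest at 1323 and PFKM lowest at 0.162 in sgCtrl, and the points of both groups lay close together for most genes.

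Across the 35 tested members, 23 had a higher and 12 a lower fitted mean when COX4I1 was targeted. The median of their log2 fold changes was 0.027, beside -0.0023 over all genes tested. By edgeR's quasi-likelihood fit, Benjamini-Hochberg adjusted over all 11861 genes, 1 member was called higher, where 1.06% of all genes were called higher, and 0 were called lower, where 1.02% of all genes were. DESeq2 called 1 higher and 3 lower, where it called 221 and 245 of all genes. Together these were 4.17% of the genes to which DESeq2 gave an adjusted p, and PFKM was given none. With limma-voom 1 and 0 members were called, beside 2.12% of all genes in either direction. In edgeR 3 members were lower at an unadjusted p under 0.05. No member was called with a change of at least 2-fold, as 0.202% of all genes were. At an unadjusted p under 0.05 there were 8 members, or 22.9%, beside 17.3% of all genes. In 6 members all 3 sgCOX4I1 libraries lay above all 3 sgCtrl libraries (17.1%, beside 11.2% of all genes), and in 2 all lay below (5.71%, beside 10.4%). The edgeR and non-overlap shares lay near those of the whole table. The share of members called by DESeq2 was above its share over the table, but the members were chosen with earlier results of these data known, so no excess can be read from it. The 3 members that DESeq2 called lower were not called by the main edgeR fit or by limma-voom. The standard errors of the log2 fold changes ran from 0.068 to 0.31, and 19 members lay within 0.1 of no change.

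**Figure D2:**
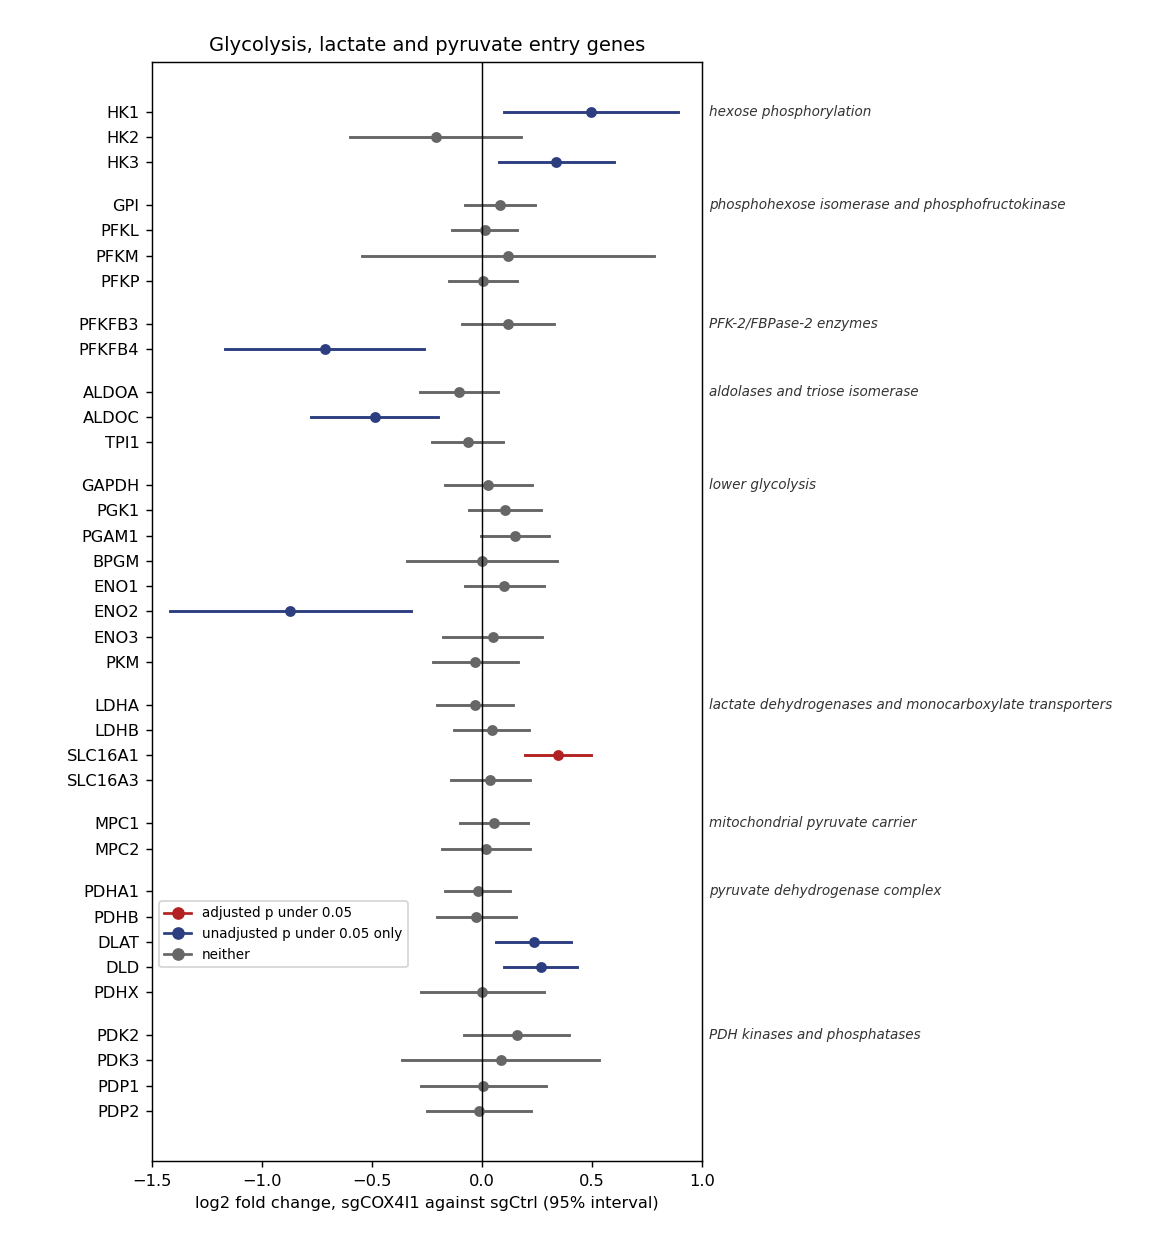
Log2 fold change of sgCOX4I1 against sgCtrl with its 95% interval (x axis) for the 35 tested members, grouped by role, from edgeR's quasi-likelihood fit, with red for an adjusted p under 0.05, blue for an unadjusted p under 0.05 only and grey for neither. SLC16A1 is the single red point at 0.35, and the 3 members below -0.4 are PFKFB4, ALDOC and ENO2.

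Hexokinases trap glucose in the cell by phosphorylation, and all 3 tested isoforms were expressed. HK1, the isoform of most tissues, was at 7.57, 9.56 and 13.7 CPM in sgCtrl #1, #2 and #3 and at 12.5, 15.1 and 16.1 CPM in sgCOX4I1 #1, #2 and #3. The sgCOX4I1 mean was higher, with sgCtrl #3 inside the sgCOX4I1 range (log2 fold change 0.50, SE 0.18, adjusted p = 0.182 by edgeR quasi-likelihood, Benjamini-Hochberg, not called). The value rested on single sgCtrl libraries, at 0.32 (adjusted p = 0.289) without sgCtrl #1 and at 0.77 (adjusted p = 0.0237, called) without sgCtrl #3 by the same edgeR test. HK3, which is typical of myeloid cells, was at 14.0, 18.3 and 17.2 CPM in sgCtrl #1, #2 and #3 and at 19.4, 20.6 and 22.5 CPM in sgCOX4I1 #1, #2 and #3. Its groups did not overlap, but the change was not called (log2 fold change 0.34, SE 0.12, adjusted p = 0.169 by the same edgeR test). HK2, the inducible isoform and the most abundant of them per length, was at 65.0, 99.7 and 123 CPM in sgCtrl #1, #2 and #3 and at 65.3, 93.2 and 90.5 CPM in sgCOX4I1 #1, #2 and #3. Both #1 libraries were low, the groups overlapped, and the fold change was not called (log2 fold change -0.21, SE 0.18, adjusted p = 0.595 by edgeR). The #1 libraries also had the highest share of ribosomal protein reads in each group, and whether that share bears on HK2 was not tested.

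The mix of hexokinases was compared within each library, where the log2 ratio of HK2 to HK1 counts was 3.10, 3.38 and 3.17 in sgCtrl #1, #2 and #3 and 2.38, 2.63 and 2.49 in sgCOX4I1 #1, #2 and #3. The sgCOX4I1 values were all lower than any sgCtrl value, a mean ratio of 9.30 in sgCtrl and 5.67 in sgCOX4I1, and the log2 difference of -0.72 stayed between -0.78 and -0.63 when any 1 library was left out (exact permutation over libraries, two-sided, p = 0.1, the least that 3 against 3 can give). Per length, HK2 made up 70.8% ± 3.51 (SD, n = 3) of the hexokinase mRNA in sgCtrl and 62.2% ± 3.16 in sgCOX4I1 libraries, HK3 22.6% ± 3.74 and 28.3% ± 2.84, and HK1 6.57% ± 0.653 and 9.45% ± 0.346.

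Phosphoglucose isomerase (GPI) and phosphofructokinase, the main control point of glycolysis, showed little difference. GPI, the most abundant of this group per length, was at 231, 243 and 254 CPM in sgCtrl #1, #2 and #3 and at 245, 273 and 253 CPM in sgCOX4I1 #1, #2 and #3. The groups overlapped and the log2 fold change was 0.08 (95% interval of the change from -5.26% to 18.3%). The liver and platelet isoforms PFKL and PFKP were nearly equal, with PFKL at 176 to 187 CPM and PFKP at 160 to 176 CPM across all 6 libraries. Their 95% intervals were -9.03% to 11.8% for PFKL and -9.88% to 11.5% for PFKP, so changes beyond those sizes lay outside the intervals. The muscle isoform PFKM had 0.923 to 1.36 CPM and as few as 17 counts in a library. Its interval ran from -31.4% to 71.8%, so neither the sign nor the size of a change was resolved at this depth. PFKP made up 51.4% ± 0.728 of phosphofructokinase mRNA per length in sgCtrl and 51.3% ± 0.207 with COX4I1 guides (SD, n = 3).

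The PFKFB enzymes make and break down the small molecule that activates phosphofructokinase. PFKFB4 was at 7.57, 12.7 and 13.1 CPM in sgCtrl #1, #2 and #3 and at 5.17, 7.38 and 7.77 CPM in sgCOX4I1 #1, #2 and #3. The sgCOX4I1 mean was lower, 6.77 ± 1.40 against 11.1 ± 3.09 CPM (SD, n = 3), and only sgCtrl #1 fell within the sgCOX4I1 range (log2 fold change -0.72, SE 0.21, adjusted p = 0.0971 by edgeR quasi-likelihood, Benjamini-Hochberg, not called). It was called by DESeq2 (adjusted p = 0.0314) and by edgeR without sgCtrl #1 (log2 fold change -0.93, adjusted p = 0.00557). PFKFB3, the more abundant form, was at 79.7, 89.1 and 98.4 CPM in sgCtrl #1, #2 and #3 and at 84.3, 105 and 101 CPM in sgCOX4I1 #1, #2 and #3, with overlapping groups and a log2 fold change of 0.12. The log2 ratio of PFKFB3 to PFKFB4 counts was 3.40, 2.81 and 2.91 in sgCtrl #1, #2 and #3 and 4.03, 3.83 and 3.70 in sgCOX4I1 #1, #2 and #3. Here the groups did not overlap, and the mean ratio was 8.21 in sgCtrl and 14.4 in sgCOX4I1 libraries (exact permutation, two-sided, p = 0.1, the least possible).

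Aldolase cleaves the hexose bisphosphate, and triose phosphate isomerase (TPI1) interconverts the products. ALDOA, with nearly all of the aldolase mRNA, was at 1384, 1343 and 1356 CPM in sgCtrl #1, #2 and #3 and at 1237, 1353 and 1210 CPM in sgCOX4I1 #1, #2 and #3. The groups overlapped through sgCOX4I1 #2 (log2 fold change -0.10, 95% interval of the change from -17.7% to 5.20%). ALDOC, the isoform best known from brain, was at 14.5, 17.9 and 14.0 CPM in sgCtrl #1, #2 and #3 and at 12.2, 10.7 and 10.2 CPM in sgCOX4I1 #1, #2 and #3. Every sgCOX4I1 library lay below every sgCtrl library, yet ALDOC was not called (log2 fold change -0.49, SE 0.13, adjusted p = 0.0795 by edgeR quasi-likelihood, Benjamini-Hochberg). DESeq2 called it (adjusted p = 0.0405), as did edgeR without sgCtrl #1 (adjusted p = 0.0478). TPI1 had a log2 fold change of -0.07, with overlapping groups between 453 and 520 CPM.

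The 8 genes from GAPDH to pyruvate kinase (PKM) form the part of glycolysis that yields ATP and NADH, with BPGM on a side branch. None of them was called by the main edgeR fit, where ENO2 was called by DESeq2, and 7 of 8 had a log2 fold change of less than 0.2 in size. GAPDH was at 3376, 3067 and 3065 CPM in sgCtrl #1, #2 and #3 and at 3164, 3425 and 3101 CPM in sgCOX4I1 #1, #2 and #3. The groups overlapped, and the 95% interval of the change ran from -11.1% to 16.9%. PGAM1 was the only one of these 8 whose sgCOX4I1 libraries all lay higher, from 392 to 409 CPM against 350 to 379 CPM (log2 fold change 0.15, adjusted p = 0.312 by edgeR quasi-likelihood, Benjamini-Hochberg). PGK1 and ENO1 each had a log2 fold change of 0.10, ENO3 of 0.05, PKM of -0.03 and BPGM of -0.00057, all with overlapping groups.

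ENO2, the enolase isoform typical of neurons, had the most negative fold change of the set. Its level was low, at 3.27, 5.43 and 6.34 CPM in sgCtrl #1, #2 and #3 and at 2.32, 3.26 and 2.72 CPM in sgCOX4I1 #1, #2 and #3. All sgCOX4I1 libraries were below all sgCtrl libraries, though sgCtrl #1 lay just above sgCOX4I1 #2, and the change was not called (log2 fold change -0.87, SE 0.25, adjusted p = 0.0952 by edgeR quasi-likelihood, Benjamini-Hochberg). ENO2 was called by DESeq2 (adjusted p = 0.0436) and by edgeR without sgCtrl #1 (log2 fold change -1.10, adjusted p = 0.0108). ENO2 made up 0.382% ± 0.128 of the enolase mRNA per length in sgCtrl and 0.195% ± 0.0269 with COX4I1 guides (SD, n = 3), whereas ENO1 made up 96.0% ± 0.519 and 96.3% ± 0.471. ALDOC likewise made up 1.64% ± 0.241 of the aldolase mRNA in sgCtrl and 1.26% ± 0.145 in sgCOX4I1 libraries.

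**Figure D3:**
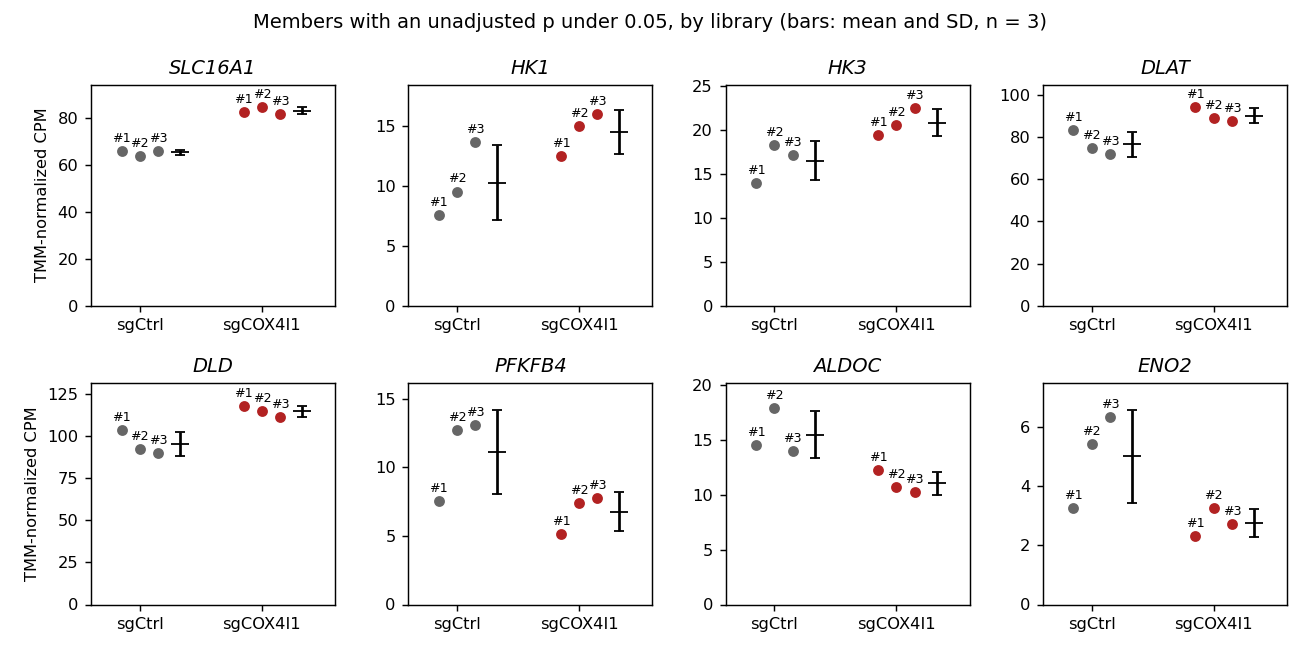
TMM-normalized CPM (y axis, from 0) of the 8 members with an unadjusted p under 0.05, with 1 point for each library, grey for sgCtrl and red for sgCOX4I1, and bars for the mean and SD of 3 libraries. SLC16A1 shows tight groups, 64.1 to 66.3 against 82.0 to 84.9 CPM, while in HK1, PFKFB4 and ENO2 the sgCtrl libraries are spread widely and sgCtrl #1 is the lowest of them.

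PFKFB4, ALDOC and ENO2 are shown with the 250 bases before their start, since they were the 3 members lower at an unadjusted p under 0.05. The sequences are RefSeq's on GRCh38.p14, given 5′ to 3′ on the strand of the gene, and capitals mark ACGTG or GCGTG, the core of the hypoxia response element, read on either strand. PFKFB4 lies on the minus strand (chr3:48556804-48557053), ALDOC on the minus strand (chr17:28576896-28577145) and ENO2 on the plus strand (chr12:6914330-6914579).
PFKFB4: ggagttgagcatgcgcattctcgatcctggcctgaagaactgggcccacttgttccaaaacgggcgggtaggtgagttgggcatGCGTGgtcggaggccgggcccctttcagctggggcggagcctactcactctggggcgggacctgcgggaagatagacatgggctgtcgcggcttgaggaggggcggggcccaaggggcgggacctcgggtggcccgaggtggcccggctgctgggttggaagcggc
ALDOC: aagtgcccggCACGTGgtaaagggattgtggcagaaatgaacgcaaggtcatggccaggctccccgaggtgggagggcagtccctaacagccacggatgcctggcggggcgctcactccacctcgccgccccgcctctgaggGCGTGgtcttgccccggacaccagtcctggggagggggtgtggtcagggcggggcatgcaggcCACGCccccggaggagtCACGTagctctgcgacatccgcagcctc
ENO2: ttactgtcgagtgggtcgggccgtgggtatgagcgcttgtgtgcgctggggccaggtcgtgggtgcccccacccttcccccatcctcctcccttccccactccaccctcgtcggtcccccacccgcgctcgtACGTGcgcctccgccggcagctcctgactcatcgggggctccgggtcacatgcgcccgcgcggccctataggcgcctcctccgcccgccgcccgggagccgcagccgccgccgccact
The stretch of PFKFB4 held 1 core, that of ENO2 held 1 and that of ALDOC held 5, of which 2 overlap within a CACGTG. Over windows from 250 bases before to 50 after the start, 23 of the 33 members in the promoter table used held ACGTG or GCGTG, beside 48.4% of 27305 promoters. ACGTG alone was in 13 of the 33 members and 21.6% of all promoters, GCGTG in 17 and 36.3%, CACGTG (an E-box, which contains ACGTG) in 5 and 7.43%, and TGATGNAA (the CEBP-ATF element) in 1, HK1, and 3.67%. LDHA, with a log2 fold change of -0.03, held 6 cores in its window and PDHB, at -0.03, held 6. A CACGTG counts as 2 cores, read once on each strand, and LDHA held 2 such stretches and PDHB 1. PGK1 and ENO1, both with a log2 fold change of 0.10, held 4 and 2 cores. Whether the cores bear on any fold change was not tested. SLC16A1, PFKFB2 and PDP1 were not analysed here. A match of letters is not a measured binding site.

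Lactate dehydrogenase and the lactate transporters form the next step. LDHB, the more abundant subunit per length, was at 1027, 953 and 965 CPM in sgCtrl #1, #2 and #3 and at 1049, 985 and 1003 CPM in sgCOX4I1 #1, #2 and #3. LDHA, the subunit that favours lactate production, was at 668, 661 and 628 CPM in sgCtrl #1, #2 and #3 and at 685, 634 and 596 CPM in sgCOX4I1 #1, #2 and #3. Both pairs of groups overlapped, with log2 fold changes of 0.04 for LDHB and -0.03 for LDHA and a 95% interval for LDHA from -13.1% to 10.2%. The ratio of LDHA to LDHB counts was 0.665 in sgCtrl and 0.630 in sgCOX4I1 libraries, and its groups overlapped too (exact permutation, two-sided, p = 0.3).

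SLC16A1 encodes MCT1, which carries lactate and pyruvate in either direction, and it lies on the minus strand of chromosome 1 from 112911847 to 112957593 in GRCh38. It was at 66.0, 64.1 and 66.3 CPM in sgCtrl #1, #2 and #3 and at 82.8, 84.9 and 82.0 CPM in sgCOX4I1 #1, #2 and #3. The groups were far apart for their spread, 65.5 ± 1.17 against 83.2 ± 1.48 CPM (SD, n = 3), and sgCOX4I1 #2, which kept the most COX4I1 mRNA, was the highest of the 3. SLC16A1 rose in the sgCOX4I1 libraries (log2 fold change 0.35, SE 0.071, adjusted p = 0.0257 by edgeR quasi-likelihood, Benjamini-Hochberg), a change of 27.1% with a 95% interval from 14.4% to 41.2%. The size of the change barely depended on the libraries, with a log2 fold change from 0.33 to 0.36 under all alternatives, but the call did: the adjusted p was 0.166 without sgCtrl #2, 0.107 without sgCOX4I1 #2 and 0.0852 without sgCOX4I1 #3 by the same edgeR test, and it ranged from 0.0014 to 0.166 over all alternatives.

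SLC16A3 encodes MCT4, a lactate exporter of highly glycolytic cells. It was at 126, 126 and 129 CPM in sgCtrl #1, #2 and #3 and at 124, 147 and 120 CPM in sgCOX4I1 #1, #2 and #3, with overlapping groups and a log2 fold change of 0.04. The log2 ratio of SLC16A3 to SLC16A1 counts was 0.93, 0.97 and 0.96 in sgCtrl #1, #2 and #3 and 0.59, 0.79 and 0.55 in sgCOX4I1 #1, #2 and #3. The groups did not overlap, a mean ratio of 1.94 against 1.56 (exact permutation, two-sided, p = 0.1, the least possible). Per length SLC16A1 made up 42.9% ± 0.364 of the sum of both in sgCtrl and 48.3% ± 2.27 with COX4I1 guides (SD, n = 3).

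MPC1 and MPC2 together form the mitochondrial pyruvate carrier. MPC1 was at 63.7, 65.3 and 63.8 CPM in sgCtrl #1, #2 and #3 and at 67.9, 63.8 and 68.2 CPM in sgCOX4I1 #1, #2 and #3, so the groups overlapped. The log2 fold changes were 0.05 for MPC1 and 0.02 for MPC2, with 95% intervals from -6.86% to 15.7% and from -11.8% to 16.2%.

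The pyruvate dehydrogenase complex is built from a decarboxylase (PDHA1 and PDHB), an acetyltransferase core (DLAT), a dihydrolipoamide dehydrogenase (DLD) and a binding protein (PDHX) that attaches it to the core. The decarboxylase genes were level: PDHA1 was at 143, 138 and 145 CPM in sgCtrl #1, #2 and #3 and at 140, 140 and 140 CPM in sgCOX4I1 #1, #2 and #3. Its groups overlapped, with a 95% interval of the change from -10.9% to 9.10%, and PDHB had a log2 fold change of -0.03 and PDHX of 0.0012. DLAT was at 83.2, 74.8 and 71.8 CPM in sgCtrl #1, #2 and #3 and at 94.1, 88.8 and 87.4 CPM in sgCOX4I1 #1, #2 and #3. DLD, which also serves other dehydrogenase complexes, was at 104, 92.1 and 90.2 CPM in sgCtrl #1, #2 and #3 and at 118, 115 and 111 CPM in sgCOX4I1 #1, #2 and #3. In both genes every sgCOX4I1 library lay above every sgCtrl library, but neither was called (log2 fold change 0.23, SE 0.079, adjusted p = 0.145 for DLAT and 0.27, SE 0.077, adjusted p = 0.0911 for DLD by edgeR quasi-likelihood, Benjamini-Hochberg). Without sgCtrl #1 both were called, at an adjusted p of 0.0488 for DLAT and 0.0263 for DLD by the same edgeR test. Taken against PDHA1 within each library, as a description with no test, the log2 ratio was higher in sgCOX4I1 by 0.26 for DLAT and by 0.29 for DLD, without overlap between the groups, and it differed by -0.0039 for PDHB and by 0.01 for PDHX.

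Pyruvate dehydrogenase kinases switch the complex off and its phosphatases switch it back on. PDP2, with the highest sgCtrl mean per length of these regulators, was at 22.2, 21.0 and 22.0 CPM in sgCtrl #1, #2 and #3 and at 19.8, 19.9 and 24.6 CPM in sgCOX4I1 #1, #2 and #3, with overlapping groups and a log2 fold change of -0.01. PDK2 lay slightly higher in all sgCOX4I1 libraries, from 15.5 to 16.0 against 13.2 to 14.9 CPM, with a log2 fold change of 0.16 (adjusted p = 0.502 by edgeR quasi-likelihood, Benjamini-Hochberg). PDK3 and PDP1 had log2 fold changes of 0.08 and 0.0052, with overlapping groups. The lowest count of this group was 76, for PDK3, and its 95% interval of -22.2% to 44.4% was correspondingly wide.

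Ratios of related genes within a library, which do not depend on the scaling of the libraries, were compared for 13 pairs. In 5 pairs the groups did not overlap, namely HK2/HK1, ALDOC/ALDOA, ENO2/ENO1, SLC16A3/SLC16A1 and PFKFB3/PFKFB4, where 21.6% of single genes over the whole table did not overlap in either direction. Each of these 5 had p = 0.1 by exact two-sided permutation, the least possible, and 0.26 after Benjamini-Hochberg adjustment over the 13 pairs, so none can be called. The log2 differences were -0.38 for ALDOC/ALDOA and -0.92 for ENO2/ENO1. When any 1 library was left out they stayed between -0.47 and -0.26 for the first of these and between -1.23 and -0.72 for the second.

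**Figure D4:**
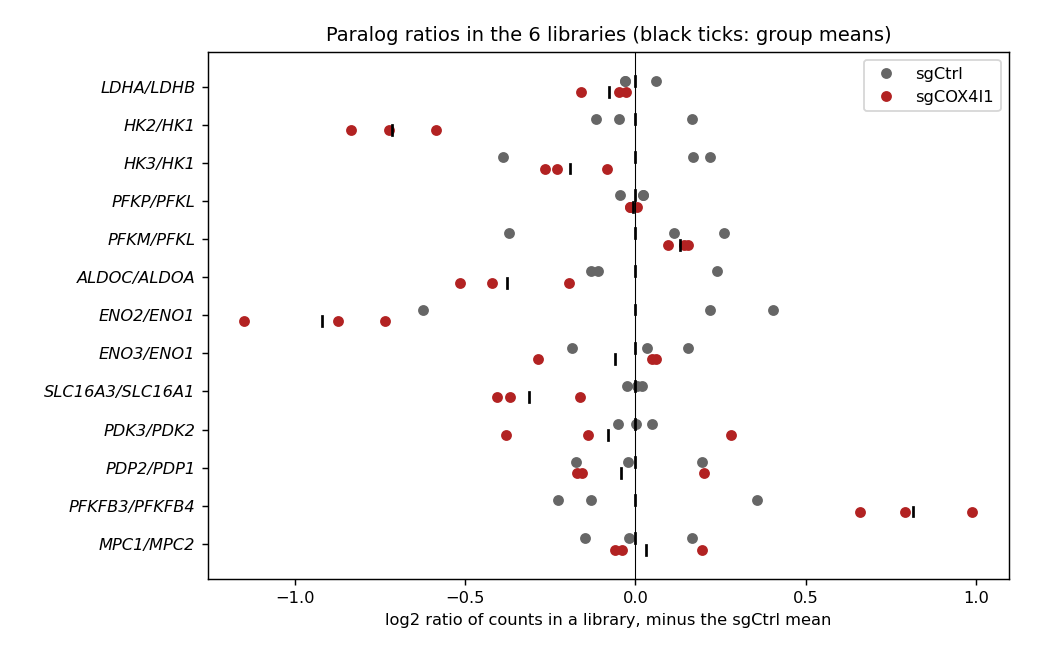
Log2 ratio of the counts of 2 related genes in each library minus the sgCtrl mean (x axis) for 13 pairs, grey points for the 3 sgCtrl and red points for the 3 sgCOX4I1 libraries, with black ticks for group means. The means of HK2/HK1 and ENO2/ENO1 lay at -0.72 and -0.92 and that of PFKFB3/PFKFB4 at 0.81, and these groups did not overlap, whereas PFKP/PFKL lay at -0.0080 with overlap.

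Around these genes, 80 others of the same metabolism, also listed with earlier results known, were read from the same fit, of which 53 were tested. Of these 3 (5.66%) were called higher, beside 1.06% of all genes, and 1 lower, beside 1.02%, and the median of the 53 log2 fold changes was 0.059. Among 14 tested genes of glycolysis and glucose uptake 1 was called: the glucose transporter SLC2A3 was at 106, 119 and 136 CPM in sgCtrl #1, #2 and #3 and at 67.4, 62.9 and 61.4 CPM in sgCOX4I1 #1, #2 and #3. It fell in all alternatives tried (log2 fold change -0.92, SE 0.092, adjusted p = 0.000249 by edgeR quasi-likelihood, Benjamini-Hochberg), and its near-identical copy SLC2A14 may share its reads.

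Among 15 tested genes of lactate and pyruvate handling 2 were called higher. GPT2, the mitochondrial transaminase between alanine and pyruvate, was at 58.7, 55.3 and 51.2 CPM in sgCtrl #1, #2 and #3 and at 82.3, 75.2 and 79.2 CPM in sgCOX4I1 #1, #2 and #3 (log2 fold change 0.52, SE 0.080, adjusted p = 0.00501 by edgeR quasi-likelihood, Benjamini-Hochberg, 0.0731 without sgCtrl #2). ME1, the cytosolic malic enzyme that makes pyruvate and NADPH, was at 2.18, 1.63 and 0.737 CPM in sgCtrl #1, #2 and #3 and at 6.73, 5.87 and 4.22 CPM in sgCOX4I1 #1, #2 and #3 (log2 fold change 1.89, SE 0.32, adjusted p = 0.00938 by the same edgeR test, 0.105 without sgCtrl #2 and 0.0624 without sgCOX4I1 #2). Neither gene's groups overlapped. BSG, the chaperone of MCT1 and MCT4, had a log2 fold change of 0.07 and was not called.

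Of 9 tested genes of the NADH shuttles 1 was called, GPD2, the mitochondrial glycerol phosphate dehydrogenase that passes electrons from cytosolic NADH to the respiratory chain. It rose from 4.25, 3.04 and 3.78 CPM in sgCtrl #1, #2 and #3 to 6.95, 6.28 and 6.59 CPM in sgCOX4I1 #1, #2 and #3 (log2 fold change 0.84, SE 0.18, adjusted p = 0.0333 by edgeR quasi-likelihood, Benjamini-Hochberg). Its groups did not overlap, and the call was lost without sgCtrl #2 (adjusted p = 0.216), sgCOX4I1 #1 (0.0650), sgCOX4I1 #2 (0.107) or sgCOX4I1 #3 (0.1003) by the same edgeR test. None of 8 tested genes of the pentose phosphate branch was called by the main edgeR fit, DESeq2 or limma-voom. The same held for 7 tested transcription factors of glycolytic genes. In each list 2 genes had an unadjusted p under 0.05 in the main fit. EdgeR with a replicate block, which called 11.9% of all genes, called RPE, EPAS1 and MYC. Without sgCtrl #1, where edgeR called 4.66% of all genes, MYC was called. The leading gene was RPE in the first list (log2 fold change 0.26, adjusted p = 0.209 by edgeR quasi-likelihood, Benjamini-Hochberg) and MYC in the second (log2 fold change 0.27, adjusted p = 0.139, same test).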

How the data were processed

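RNA of 6 Molm13-Cas9 cultures, 3 sgCtrl and 3 sgCOX4I1, was sequenced. The authors deposited unnormalized counts of reads per gene symbol, as whole numbers in 1 table. The submitters' processing notes name bcl2fastq 2.20.0.422, STAR 2.6.0a and edgeR with GRCh38, whereas the study's methods name Trimmomatic, Bowtie2 and RSEM. The strand setting is not given in the sources used here. In the column names, C was read as sgCtrl, K as sgCOX4I1 and the digit as the library number.

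In R 4.3.3, edgeR 4.0.16 was run with TMM and filterByExpr, followed by its quasi-likelihood test over all genes with Benjamini-Hochberg adjustment and no covariate. Values are TMM-normalized CPM, and intervals are 95%. Alternatives were DESeq2 1.42.0, limma-voom (limma 3.58.1), no TMM, other filters, a replicate block and each library left out. Scripts were tested on simulated data. Libraries of 1 group differed beyond sampling noise (chi-square per degree of freedom of 11.0 to 27.5).

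Members and lists were chosen with earlier results of these data known. Values by library are given for members with an unadjusted p under 0.05 and for the highest per length in each role, with the other members by range and counts and other pathway genes where called or smallest in p. LDHA, SLC16A3, PGAM1, PDK2, SLC2A14 and BSG were added after their values were seen. Exon lengths and positions came from GENCODE 44, which matched all 36 members and 18437 of 19845 symbols, and promoters from RefSeq.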

Additional observations from a re-analysis of the deposited data

How the results depend on the processing

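The median log2 fold change of the members lay between 0.015 and 0.043 under all 12 alternatives, and SLC16A1 kept its direction. The 23 higher and 12 lower members became 18 and 17 without sgCOX4I1 #2. Members called higher (1) and lower (0) became 1 and 3 by DESeq2 and also without the filter on low counts (PFKFB4, ALDOC and ENO2), and ranged from 0 to 3 for both when 1 library was left out. Over all genes, 126 higher and 121 lower calls became 221 and 245 by DESeq2, 286 and 251 without the filter, and 12 to 227 and 12 to 334 with 1 library left out, with the fewest without sgCtrl #2 (12 and 12). Calls of at least 2-fold (24) became 41 without the filter and ranged from 9 to 50. The other pathway genes called higher (3) became 5 without the filter and ranged from 0 to 7. The log2 fold change of COX4I1 was -1.20 without the filter, -1.40 by limma-voom and -1.89 to -0.95 with 1 library left out. It was called under 6 of the 12 alternatives, with an adjusted p from 3.4e-06 to 0.272 (0.234 by DESeq2).

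Same-numbered libraries deviated together with correlations of 0.382, -0.0244 and 0.294, and sgCtrl #2 correlated best with sgCOX4I1 #3, so a pairing by number was not shown in all 3 pairs and none was assumed, although the mitochondrial and ribosomal shares took the same order by number in both groups. With a replicate block, 5 members were called higher (HK1, HK3, SLC16A1, DLAT and DLD) and 3 lower (PFKFB4, ALDOC and ENO2), where 723 and 685 of all genes were called, 57 at 2-fold or more, 11 and 2 of the other pathway genes, and COX4I1 had a log2 fold change of -1.39.

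Fold changes near 0 changed sign when 1 library was left out, none of them called: HK2 from -0.43 to 0.012, PFKL from -0.0084 to 0.036, PFKM from -0.023 to 0.23, PFKP from -0.032 to 0.039, GAPDH from -0.016 to 0.074, BPGM from -0.081 to 0.091, ENO3 from -0.037 to 0.16, PKM from -0.12 to 0.028, LDHA from -0.083 to 0.015, SLC16A3 from -0.056 to 0.094, MPC2 from -0.051 to 0.087, PDHB from -0.090 to 0.015, PDHX from -0.072 to 0.084, PDK3 from -0.11 to 0.23, PDP1 from -0.076 to 0.11 and PDP2 from -0.13 to 0.044. BPGM was also at 0.014 without TMM, 0.0045 without the filter and 0.016 by limma-voom, and PDP2 at 6.0e-05 without TMM. The cause was not tested. Depth limits PFKM most, with 17 counts in its smallest library.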
